A study of Homo sapiens with 8 samples.

Results

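Of the 129536 peaks of open chromatin in the deposited count table, 751 (0.58%) lay on sequences that the genome assembly holds outside chromosomes 1 to 22, X and Y. They were chosen by sequence name alone, and each of them passed the filter on low counts. They fell on 77 contigs. Of these peaks, 416 were on 32 unlocalized contigs, which the assembly assigns to a chromosome but to no position on it, and 335 were on 45 unplaced contigs, which it assigns to no chromosome.

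The data were 8 ATAC-seq libraries, an assay in which a transposase cuts accessible DNA, each from 50000 cells. The cells were HEK293, a human embryonic kidney cell line, whose genotype field names eGFP-YAP (the protein YAP fused to a green fluorescent protein) while the titles name HEK293 only. Of these, 4 libraries came from cells given vehicle and 4 from cells given 0.2 M sorbitol, which raises the osmolarity of the medium, for 1 h. The design text places a serum starvation before the exposure, shared by both groups, and no label says that the 4 libraries of a group came from separate cultures, so p-values measure the spread between libraries, which may be technical.

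Unplaced and unlocalized contigs are pieces of the human genome that could not be put in order, many of them because they consist of repeats such as satellite DNA, segmental duplications or ribosomal DNA. Ribosomal DNA encodes the 45S precursor of the 18S, 5.8S and 28S ribosomal RNAs in tandem arrays on the short arms of the acrocentric chromosomes, and a full copy stands on the contigs KI270733v1 (assigned to chromosome 22) and GL000220v1 (unplaced). Each such contig stands for many near-identical copies in the cell, so a read may fit several places, and a count on a contig is not the accessibility of 1 locus. All contig counts given here are uncertain in that sense. No genome sequence was used here, and the gene table used names no scaffold, so genes are named only where a position matched.

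The contig peaks were few but deep. Their median width was 371 bp against 400 bp on the chromosomes, and their median count per library was 82.8 against 43.8. Per kilobase of peak they held 48.6 CPM (the count scaled to a library total of 1000000 counts in peaks) against 14.6 on the chromosomes. Unlocalized and unplaced contigs were close to each other in this respect, at 46.8 and 50.6 CPM per kb.

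Library totals in peaks ran from 11522266 to 19831471 counts, and contig peaks held 219912 to 321340 of them. The sorbitol libraries had the lower totals, with 11522266 to 14355727 counts against 14757015 to 19831471 for vehicle. The contribution of depth to the differences was not tested.

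Contig peaks took 1.81%, 1.70%, 1.59% and 2.18% of the counts in vehicle libraries 1 to 4, and 2.09%, 1.90%, 2.10% and 1.53% in sorbitol libraries 1 to 4. The groups overlapped, and the lowest and the highest of the 8 values both came from libraries numbered 4, in opposite groups. The means were 1.82% ± 0.253 (SD, n = 4) and 1.90% ± 0.264 (SD, n = 4), a difference of 0.0822 percentage points with p = 0.657 in a two-sided exact permutation test. With both replicate 4 libraries left out, the 3 sorbitol values stood above the 3 vehicle values by 0.325 percentage points on average (exact permutation p = 0.1, the smallest that 3 against 3 can give). Since vehicle 4 was the highest vehicle and sorbitol 4 the lowest sorbitol library, leaving both out must raise the difference. Values without these 2 libraries, here and below, show how results depend on them and are no test of a rise. Between sorbitol 4 and vehicle 4 the difference was -0.646 percentage points. The share on contigs differed between libraries of 1 group by more than between the group means.

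Unlocalized contigs took 0.923% ± 0.119 of vehicle counts and 0.930% ± 0.121 of sorbitol counts (SD, n = 4 each, exact permutation p = 0.943). Unplaced contigs took 0.898% ± 0.135 and 0.973% ± 0.143 (SD, n = 4 each, exact permutation p = 0.514). Both classes followed the same libraries: vehicle 4 had the highest vehicle share of each, at 1.09% and 1.08%, and sorbitol 4 the lowest sorbitol share of each, at 0.760% and 0.772%.

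**Figure D1:**
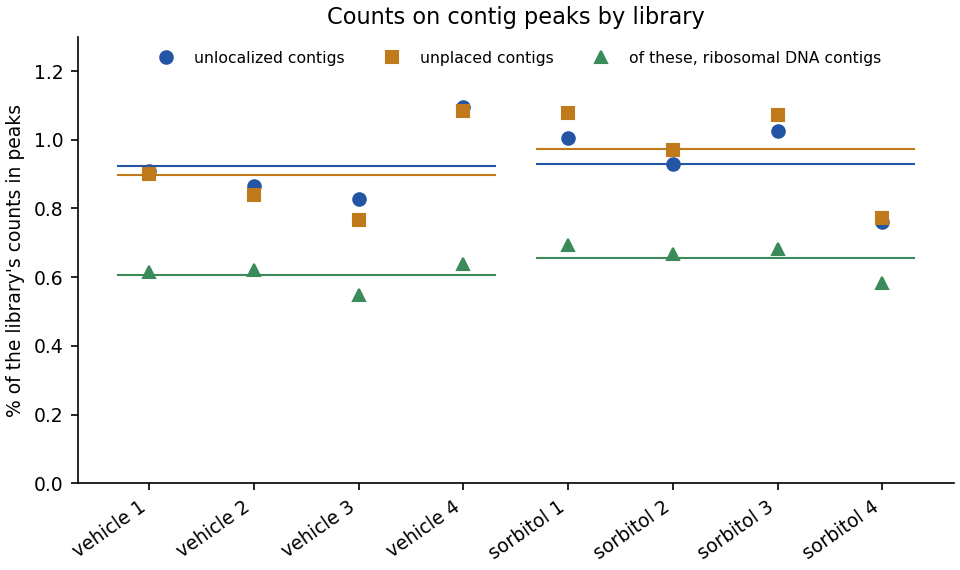
Percent of each library's counts in peaks (vertical axis) that lay on unlocalized contigs (circles), unplaced contigs (squares) and, as a subset of both, the 2 ribosomal DNA contigs (triangles), for 4 vehicle and 4 sorbitol libraries, with horizontal lines at the group means. Vehicle 4 and sorbitol 4 depart from their groups in opposite directions, more for the 2 classes than for ribosomal DNA.

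The balance between the classes separated the groups where the shares did not. The log2 ratio of unlocalized to unplaced counts was 0.01, 0.04, 0.11 and 0.01 in vehicle libraries 1 to 4 and -0.10, -0.06, -0.06 and -0.02 in sorbitol libraries 1 to 4. Every sorbitol value was below every vehicle value, including in both libraries numbered 4. The difference was -0.11 (exact permutation p = 0.0286, the smallest that 4 against 4 can give, so any single library left out brings it to 0.0571). It rested on 1 contig: without GL000205v2, an alternative chosen after the data were seen, the difference was -0.02 (exact permutation p = 0.257).

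Counts were concentrated on few contigs. The 8 with the most counts held 72.1% of all contig counts, and 23 contigs carried a single peak. The order by mean CPM was KI270733v1 (3289, 34 peaks), GL000220v1 (3019, 42 peaks), GL000225v1 of chromosome 14 (2417, 68 peaks), KI270438v1 (1313, 11 peaks), GL000216v2 (1059, 39 peaks), GL000205v2 of chromosome 17 (923, 29 peaks), KI270467v1 (798, 2 peaks) and KI270729v1 of chromosome 17 (619, 28 peaks). KI270733v1 was above GL000220v1 in 8 of 8 libraries although their ranges overlapped (2864 to 3618 and 2611 to 3324), GL000220v1 was above GL000225v1 in 7 of 8, and GL000225v1 above KI270438v1 and KI270438v1 above GL000216v2 in 8 of 8. GL000216v2 and GL000205v2 could not be ordered, since the first was higher in 5 of 8 libraries, and the same held for GL000205v2 against KI270467v1. Per kilobase of peak, the short contig KI270467v1 stood at 298 CPM, above KI270466v1 with its single peak (193), KI270438v1 (144) and KI270733v1 (127).

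The strongest contigs differed in how far the libraries numbered 4 departed from the rest. KI270438v1 had 1218, 1048, 937 and 1810 CPM in vehicle libraries 1 to 4 and 1597, 1399, 1568 and 931 CPM in sorbitol libraries 1 to 4. The groups overlapped from end to end, with vehicle 4 the highest and sorbitol 4 the lowest of the 8. Its log2 fold change was 0.05 ± 0.22 (SE) with an edgeR adjusted p of 0.964. Without both replicate 4 libraries it was 0.40 ± 0.10 (edgeR adjusted p = 0.00917). Leaving out the highest and the lowest library in this way was bound to raise it.

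GL000225v1 had 2219, 1928, 1965 and 3067 CPM in vehicle libraries 1 to 4 and 2752, 2454, 3011 and 1938 CPM in sorbitol libraries 1 to 4. It showed the same arrangement, with vehicle 4 on top of all 8 and sorbitol 4 inside the range of the other vehicle libraries. Its log2 fold change was 0.06 (edgeR adjusted p = 0.942), and 0.32 without replicate 4 (adjusted p = 0.00946). GL000216v2 went from 0.08 to 0.38, KI270467v1 from 0.30 to 0.50 and KI270729v1 from 0.11 to 0.47 in log2 fold change when both libraries were left out, each passing the edgeR test then and not in all 8 libraries.

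The ribosomal DNA contigs varied less. KI270733v1 had 3188, 3225, 2864 and 3347 CPM in vehicle libraries 1 to 4 and 3618, 3487, 3562 and 3023 CPM in sorbitol libraries 1 to 4. GL000220v1 had 2966, 2980, 2611 and 3048 CPM in vehicle and 3324, 3176, 3258 and 2792 CPM in sorbitol libraries 1 to 4. In CPM, both sets overlapped only through sorbitol 4. The edgeR test also divides by a scaling factor per library (TMM), 0.9542 to 0.9905 in vehicle and 1.014 to 1.042 in sorbitol libraries. This lowers sorbitol against vehicle, so it does not remove the overlap. That sorbitol 4 alone overlapped holds in CPM and need not hold on the tested scale. Their log2 fold changes were 0.03 each (edgeR adjusted p = 0.942 for both), and 0.09 and 0.08 without both replicate 4 libraries (adjusted p = 0.221 and 0.316).

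Over the 77 contigs, vehicle 4 was the highest vehicle library and sorbitol 4 the lowest sorbitol library for 56. Among the 39 contigs with at least 3 peaks that neither carried ribosomal DNA nor fell in the test, vehicle 4 stood at a median of 1.41 times the mean of the other vehicle libraries (range 0.801 to 1.98), and sorbitol 4 at 0.715 times the mean of the other sorbitol libraries (range 0.517 to 0.998). For the 7 contigs that fell, the medians were 1.02 and 0.95.

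With counts summed per contig and tested in edgeR among 101 sequences, 7 of 77 contigs fell after sorbitol, where 20.8% of all sequences were called lower, and 0 of 77 rose, where 1.98% were called higher. No contig was higher at an unadjusted edgeR p under 0.05 either, and the exact permutation test of single contigs called 0: the 7 contigs that fell all reached the smallest p that 4 against 4 can give, 0.0286, which adjusts to 0.12, so that test could not pass the threshold for them. The 7 were those in which the groups did not overlap. Without both replicate 4 libraries the same test called 37 of 77 contigs higher (48.1%, against 39.6% of all 101 sequences) and 8 lower (10.4%, against 26.7%). All sequences include the contigs, so 37 of the 40 sequences called higher were contigs.

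The 3 contigs with the smallest p were KI270713v1 of chromosome 1, GL000205v2 and GL000195v1. KI270713v1 had 307, 328, 303 and 272 CPM in vehicle libraries 1 to 4 and 158, 159, 162 and 152 CPM in sorbitol libraries 1 to 4, a log2 fold change of -1.02 ± 0.11 (SE, edgeR adjusted p = 5.41e-05). GL000205v2 had 1140, 1153, 1240 and 1127 CPM in vehicle and 672, 671, 679 and 700.3 CPM in sorbitol libraries 1 to 4, a log2 fold change of -0.86 ± 0.09 (edgeR adjusted p = 4.37e-05). GL000195v1 had 651, 657, 700.1 and 640 CPM in vehicle and 413, 417, 414 and 435 CPM in sorbitol libraries 1 to 4, a log2 fold change of -0.74 ± 0.10 (edgeR adjusted p = 0.000211). In none of the 3 did a library numbered 4 leave its group. The other 4, named after their values were seen, were GL000218v1 (-0.64), KI270721v1 (-0.56), GL000221v1 (-0.48) and GL000219v1 (-0.39).

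**Figure D2:**
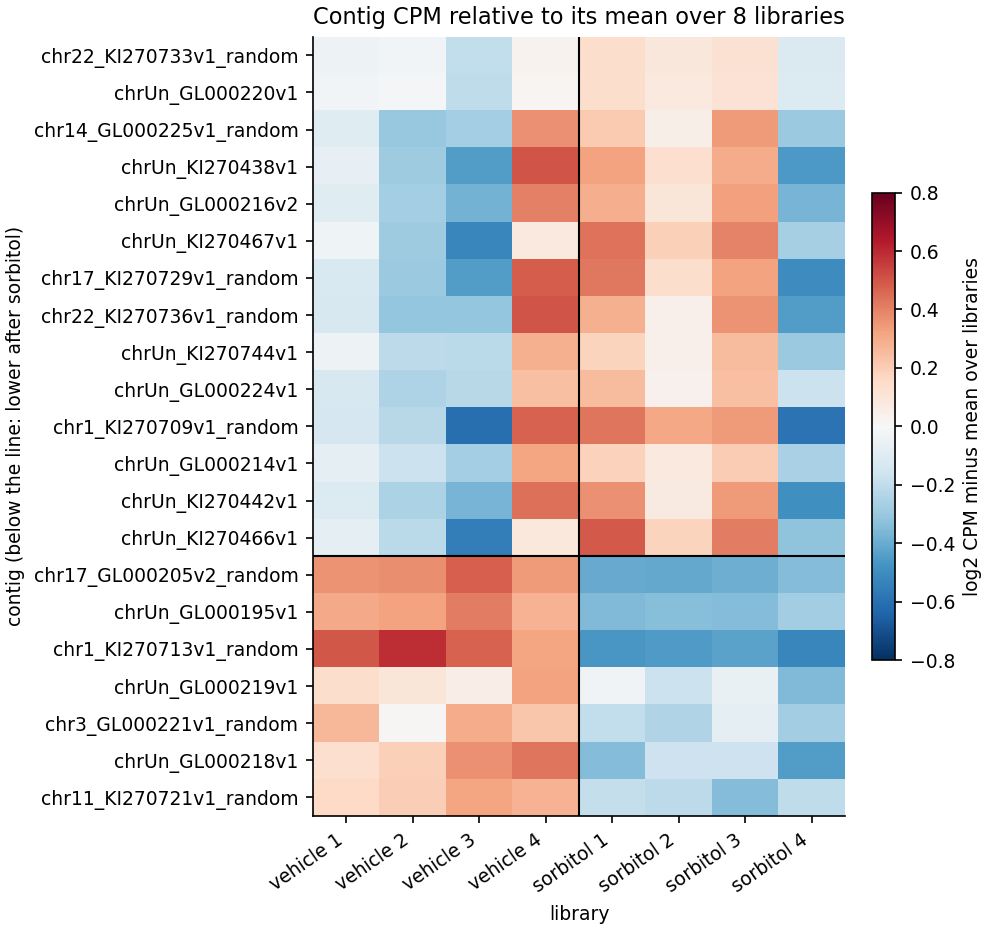
Log2 CPM of each contig minus its mean over the 8 libraries (colour, red above and blue below), for 4 vehicle and 4 sorbitol libraries (columns), for the strongest contigs that were not called and, below the line, the 7 contigs called lower (rows). Above the line vehicle 4 is mostly red and sorbitol 4 blue, against the other libraries of their groups, while below the line all 4 vehicle libraries lie above all 4 sorbitol libraries.

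Peak by peak, edgeR called 99 of the 751 contig peaks changed after sorbitol at an adjusted p under 0.05, or 13.2%, where 29.1% of all 129487 tested peaks were called. Of these, 37 rose (4.93%, against 16.0% of all peaks) and 62 fell (8.26%, against 13.1%). Unlocalized contigs had 20 of 416 peaks higher (4.81%) and 39 lower (9.38%), and unplaced contigs 17 of 335 higher (5.07%) and 23 lower (6.87%), a difference between the classes that was not tested. The median log2 fold change was 0.04 on contigs, 0.03 on unlocalized and 0.06 on unplaced contigs, beside 0.01 over all tested peaks. Of the peaks called at least 2-fold changed, 2 were higher (0.266%, against 5.27% of all peaks) and 7 lower (0.932%, against 0.881%). CPM values did not overlap between groups at 59 peaks (7.86%, against 26.8% of all peaks), with sorbitol above at 10 (1.33%, against 17.3%) and below at 49 (6.52%, against 9.47%).

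The number that rose depended on the libraries and on scaling. Without vehicle 4, 145 contig peaks were called higher (19.3%, against 16.3% of all peaks). Without sorbitol 4 there were 77 (10.3%, against 13.9%), and without both 258 (34.4%, against 15.3%). Vehicle 4 was the highest vehicle and sorbitol 4 the lowest sorbitol library at 447 contig peaks, where leaving both out must raise the difference. Leaving out vehicle 2, vehicle 3, sorbitol 1 or sorbitol 3 lowered the number to between 15 and 19, against 12.9%, 13.3%, 13.2% and 13.0% of all peaks. Scaling by library totals gave 62 higher and 53 lower (8.26% and 7.06%, against 20.2% and 9.77% of all peaks). A loess scaling gave 100 higher and 73 lower (13.3% and 9.72%, against 14.1% and 12.8%). Under both of these most calls were higher. The number that fell moved less, with 52 called lower without both libraries numbered 4 (6.92%, against 13.8% of all peaks), of which 51 were among the 62.

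**Figure D3:**
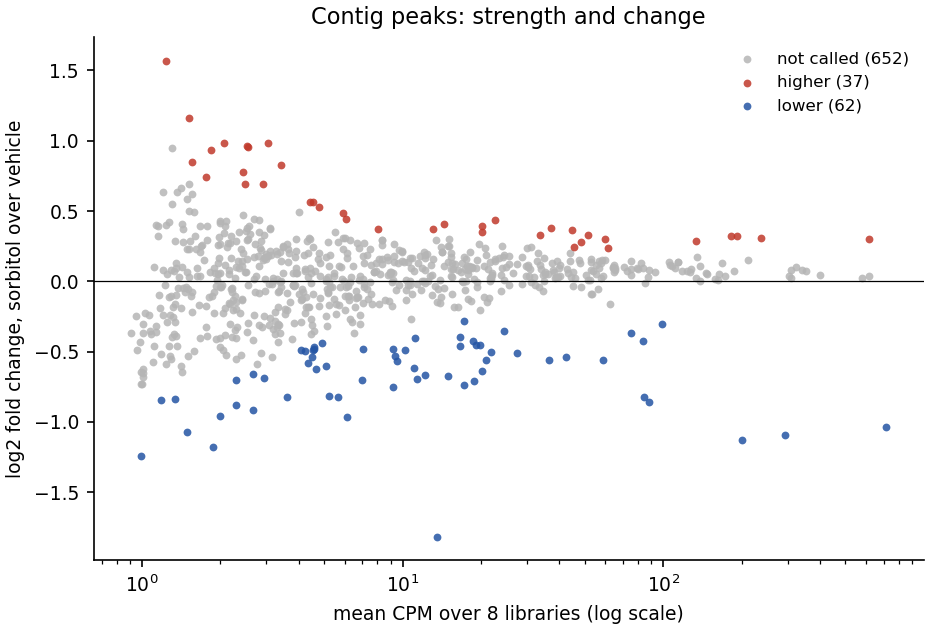
Log2 fold change of sorbitol over vehicle (vertical axis) against mean CPM over 8 libraries (horizontal axis, log scale) for the 751 contig peaks, coloured by the edgeR call. The 37 higher calls run from 0.238 to 1.57, with the largest at a weak peak of 1.24 CPM and small changes at strong peaks. By contrast, 4 of the strongest lower calls lie near or past -0.86.

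In all 8 libraries the spread within groups was larger on contigs than on chromosomes. The median SD of log2 CPM within a group was 0.34 on contigs and 0.26 on chromosomes, and among peaks with a mean of 200 to 1000 counts it was 0.30 and 0.11. Without both replicate 4 libraries the order turned over all peaks, with 0.22 on contigs and 0.24 on chromosomes, while at 200 to 1000 counts the SDs were 0.15 and 0.11. The group difference exceeded the within-group SD at 29.4% of contig peaks and 55.8% of chromosome peaks, and without both libraries at 76.4% and 60.9%. Where these 2 were the highest vehicle and the lowest sorbitol library, leaving them out must raise the difference.

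Vehicle 4 was the highest vehicle library and sorbitol 4 the lowest sorbitol library at 447 of the 751 contig peaks (59.5%) and at 9.91% of chromosome peaks. The median difference between sorbitol 4 and vehicle 4 was -0.63 in log2 CPM on contigs and 0.04 on chromosomes. On unlocalized and unplaced contigs it was -0.65 and -0.61. Among the 62 peaks that fell, the arrangement held for 6 (9.68%).

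The median deviation of contig peaks from their own mean, in log2 CPM, was -0.05, -0.19, -0.27 and 0.34 in vehicle libraries 1 to 4 and 0.21, 0.08, 0.27 and -0.30 in sorbitol libraries 1 to 4. The vehicle values spanned almost the same range as the sorbitol values. Vehicle 3 had the lowest vehicle value and vehicle 4 the highest. Both carry the first number 2 in their library names, as do sorbitol 3 and 4, so that number did not separate these libraries.

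**Figure D4:**
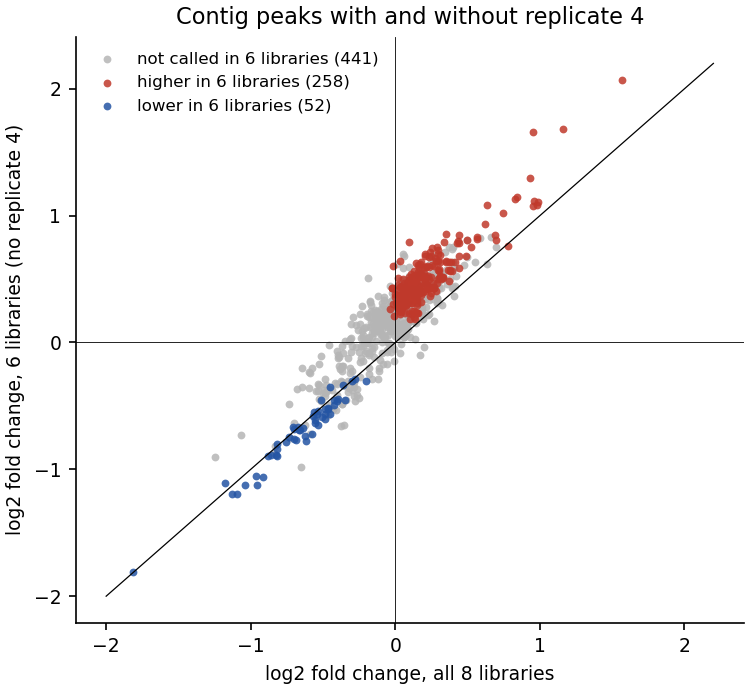
Log2 fold change of each contig peak in all 8 libraries (horizontal axis) and in the 6 libraries left without replicate 4 (vertical axis), coloured by the call in 6 libraries, with the line of equal values. Peaks near 0 move up, bringing 258 higher calls, while the lower calls lie close to the line.

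On GL000205v2, KI270713v1 and GL000195v1 a single wide peak carried most of the contig's counts and fell. The peak at 86605-90076 of GL000205v2, 3472 bp wide and the strongest contig peak by CPM, had 929, 939, 1015 and 896 CPM in vehicle libraries 1 to 4 and 475, 473, 479 and 521 CPM in sorbitol libraries 1 to 4. All sorbitol values were below all vehicle values by a wide gap. Its log2 fold change was -1.04 ± 0.07 (SE, edgeR adjusted p = 9.52e-18), and its alternatives ran from -1.13 to -0.78.

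The other called peaks of GL000205v2 did not all move with it. Of its 29 peaks, 9 fell and 4 rose, where 13.1% and 16.0% of all tested peaks did. The 4 that rose, chosen here after their values were seen, were weak, such as the peak at 112-577 with 3.94, 3.51, 3.33 and 4.41 CPM in vehicle libraries 1 to 4 and 4.77, 7.25, 7.46 and 3.69 CPM in sorbitol libraries 1 to 4. These groups overlapped through sorbitol 4. A stronger peak that fell there, at 140161-141037, had at least 62.8 CPM in each vehicle library and at most 52.0 CPM in each sorbitol library.

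On KI270713v1 the peak at 20808-22505 had 274, 296, 271 and 237 CPM in vehicle libraries 1 to 4 and 132, 132, 132 and 128 CPM in sorbitol libraries 1 to 4. The 4 sorbitol libraries were almost level and far below vehicle. Its log2 fold change was -1.13 ± 0.07 (edgeR adjusted p = 1.81e-17). A second peak of the contig, at 28315-29314, had 17.9, 17.7, 18.8 and 17.4 CPM in vehicle and 11.5, 10.99, 14.7 and 10.6 CPM in sorbitol libraries 1 to 4, again with no overlap, and fell by 0.68 on the log2 scale (edgeR adjusted p = 3.78e-06).

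The RefSeq gene table lists, on chromosome 1, the small nuclear RNA gene LOC124905321 at 21861-22024 and the asparagine transfer RNA gene TRN-GTT26-1 at 28755-28828, positions inside these 2 peaks. Small nuclear RNAs act in splicing, and transfer RNAs carry amino acids to the ribosome. The table gives the chromosome but not the scaffold, so the match rests on position alone. Position alone can mislead: it also puts the 5.8S gene RNA5-8SN5, which belongs to a 45S gene, inside a peak of KI270438v1, and 1 small nuclear RNA gene, LOC124905334, inside peaks of both GL000195v1 and GL000219v1.

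On GL000195v1 the peak at 30411-33144 had 393, 393, 415 and 372 CPM in vehicle libraries 1 to 4 and 191, 191, 185 and 212 CPM in sorbitol libraries 1 to 4. On GL000219v1 the peak at 42292-42926 had 19.97, 21.6, 20.6 and 21.6 CPM in vehicle and 7.46, 6.29, 5.38 and 6.06 CPM in sorbitol libraries 1 to 4. Neither pair of groups overlapped. Their log2 fold changes were -1.10 ± 0.07 and -1.82 ± 0.12 (edgeR adjusted p = 9.52e-18 for both), the second being the largest decrease among called contig peaks. A weak peak of GL000219v1 at 133091-133461, with 2.24 to 3.09 CPM in vehicle and 0.836 to 1.39 CPM in sorbitol libraries, fell by 1.18 on the log2 scale (edgeR adjusted p = 0.000588). The other called decreases past 2-fold, named after their values were seen, were weak peaks: GL000220v1 at 83174-83412, with 18 to 27 counts in vehicle and 5 to 10 in sorbitol libraries, fell by 1.24 (edgeR adjusted p = 0.00639), and KI270728v1 at 1504997-1505267, with 23 to 38 and 8 to 16 counts, fell by 1.07 (edgeR adjusted p = 0.00652). Neither was called without both libraries numbered 4. Over all 62 decreases, on 20 contigs, the median was -0.61 and 45 showed no overlap.

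The increases were weak peaks or small changes. The peak at 7665-7872 of KI270734v1, assigned to chromosome 22, had 6, 12, 6 and 15 counts in vehicle libraries 1 to 4 and 22, 23, 30 and 17 counts in sorbitol libraries 1 to 4. In CPM these were 0.394, 0.690, 0.303 and 1.02 against 1.91, 1.83, 2.60 and 1.18, so that the lowest sorbitol value was just above the highest vehicle value. Its log2 fold change was 1.57 ± 0.35 (edgeR adjusted p = 0.000563). This was the larger of the 2 called increases of at least 2-fold, both on unlocalized contigs. The groups overlapped in CPM at the other, which the rules did not name.

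At 229-829 of GL000194v1, assigned to chromosome 14, the vehicle libraries had 1.55 to 2.43 CPM and the sorbitol libraries 3.11 to 5.38 CPM. At 29672-30060 of KI270718v1, assigned to chromosome 9, they had 1.25 to 2.30 and 2.69 to 4.14 CPM. At 161956-162494 of GL000224v1, unplaced, they had 0.977 to 2.03 and 3.07 to 3.98 CPM. In all 3 the groups stood apart, with log2 fold changes of 0.98, 0.96 and 0.95 and edgeR adjusted p of 0.00057, 0.00158 and 0.00155, on 17 to 62 counts per library.

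Among the strongest contig peaks, the highest CPM with an increase was at 1923-3866 of KI270467v1. It had 584, 491, 421 and 644 CPM in vehicle libraries 1 to 4 and 814, 682, 792 and 499 CPM in sorbitol libraries 1 to 4. Sorbitol 4 lay among the vehicle libraries, so the groups overlapped. The log2 fold change was 0.30 ± 0.09 (edgeR adjusted p = 0.0107), which did not pass without vehicle 2 (adjusted p = 0.0519), vehicle 3 (0.118), sorbitol 1 (0.0955) or sorbitol 3 (0.0992), nor in DESeq2 (0.288), and was 0.50 without both libraries numbered 4. Its neighbour at 900-1637 rose by a similar 0.32 (edgeR adjusted p = 0.00812), as did a peak covering much of KI270466v1 at 5-1233, by 0.31 (edgeR adjusted p = 0.0137). Over all 37 peaks that rose, on 19 contigs, the median was 0.44, and 7 showed no overlap.

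Both strong peaks of KI270438v1 did not pass the test in all 8 libraries. The one at 109185-110645 had 547, 458, 409 and 813 CPM in vehicle libraries 1 to 4 and 700.1, 604, 674 and 415 CPM in sorbitol libraries 1 to 4. The one at 111235-112463 had 321, 287, 249 and 477 CPM in vehicle and 427, 380.1, 434 and 247 CPM in sorbitol libraries 1 to 4. In each, vehicle 4 was the highest library, and sorbitol 4 stood beside the lowest vehicle library. Their log2 fold changes were 0.02 and 0.08 (edgeR adjusted p = 0.909 and 0.655), and 0.37 and 0.42 without both libraries numbered 4 (adjusted p = 2.66e-07 and 1.68e-08). The later values leave out the highest vehicle and the lowest sorbitol library, so they were bound to be larger.

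The ribosomal DNA contigs held 76 peaks and 34.0% of all contig counts. The gene table places a 45S gene on chromosome 22 at 122273-135645 (RNA45SN4) and one with no chromosome at 105424-118780 (RNA45SN5), taken here, from general knowledge of the assembly, as those of KI270733v1 and GL000220v1, with an 18S pseudogene marking a partial copy further on (RNA18SP4 and RNA18SP3). The contigs had 9 and 15 peaks upstream of the 45S gene and 5 and 9 over it, KI270733v1 first, and only some of them stood at similar distances from the 45S start on both. Ribosomal DNA contigs took 0.606% ± 0.0402 of the vehicle counts and 0.656% ± 0.051 of the sorbitol counts (SD, n = 4 each). Peaks over 3 annotated 45S genes of chromosome 21 took 0.403% ± 0.0284 and 0.445% ± 0.0315, with sorbitol 4 again the lowest sorbitol library, at 0.398%.

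Over the 45S genes, 1 of 14 peaks rose and 0 fell, where 16.0% and 13.1% of all tested peaks did, and the median log2 fold change was 0.08. The peak that rose, at 125054-125261 of KI270733v1, had a log2 fold change of 0.377 (edgeR adjusted p = 0.00304). Without both replicate 4 libraries 3 of the 14 rose, where 15.3% of all peaks and 34.4% of contig peaks did. The peak over the 18S sequence of KI270733v1, at 125869-128053, had 383, 407, 345 and 390.3 CPM in vehicle libraries 1 to 4 and 449, 420.0, 424 and 372 CPM in sorbitol libraries 1 to 4. The peak over the end of its 28S sequence, at 133825-136069, had 575, 606, 550 and 633 CPM in vehicle and 678, 656, 653 and 581 CPM in sorbitol libraries 1 to 4. In CPM, both overlapped through sorbitol 4. Their log2 fold changes were 0.04 ± 0.07 and 0.04 ± 0.07 (edgeR adjusted p = 0.692 and 0.726), and loess scaling gave 0.30 for each (adjusted p = 8.34e-05 and 1.8e-05). In the partial copy, 0 of 18 peaks were called in all 8 libraries, with a median of 0.08. Without both replicate 4 libraries 7 of the 18 rose, close to the 34.4% of contig peaks that did (15.3% of all peaks).

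Upstream of the 45S genes most peaks were far weaker, apart from 1 on each contig, with a mean of 88.1 CPM on KI270733v1 and 84.4 CPM on GL000220v1. Of 24 peaks there, 11 fell and 0 rose, where 13.1% and 16.0% of all tested peaks did, with a median log2 fold change of -0.46. On KI270733v1 6 of 9 fell (median -0.74), and on GL000220v1 5 of 15 (median -0.24). Summed over both contigs the 24 peaks had 327, 323, 352 and 308 CPM in vehicle libraries 1 to 4 and 222, 207, 217 and 199.6 CPM in sorbitol libraries 1 to 4. Most of this sum lay in the 2 strong peaks. These groups did not overlap and no library numbered 4 left its group. Without both replicate 4 libraries, 8 of the 24 fell and 1 rose, where 13.8% and 15.3% of all peaks did, and 6.92% and 34.4% of contig peaks.

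The strongest of them, at 23902-25225 of KI270733v1, with its centre 97709 bp before the 45S start, had 112, 109, 120.3 and 104 CPM in vehicle libraries 1 to 4 and 68.5, 62.8, 67.5 and 61.1 CPM in sorbitol libraries 1 to 4. Its counterpart on GL000220v1, at 6950-7990 and 97954 bp before the start, had 109.5, 104, 116 and 93.0 CPM in vehicle and 64.9, 62.5, 63.3 and 62.6 CPM in sorbitol libraries 1 to 4. The vehicle libraries ranked alike at both, and neither pair of groups overlapped. The log2 fold changes were -0.86 ± 0.08 and -0.82 ± 0.08 (edgeR adjusted p = 8.89e-13 and 8.5e-12). How far the same reads fed both was not tested.

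Between the 45S gene and the partial copy, 9 of 20 peaks rose and 3 fell, where 16.0% and 13.1% of all tested peaks did. Without both replicate 4 libraries 14 of the 20 rose and 3 fell, where 15.3% and 13.8% of all peaks did, and 34.4% and 6.92% of contig peaks. The strongest increase by p was at 163140-163444 of KI270733v1, with 21.1, 18.9, 14.8 and 19.8 CPM in vehicle libraries 1 to 4 and 31.4, 27.2, 29.9 and 18.6 CPM in sorbitol libraries 1 to 4. Again sorbitol 4 alone fell among the vehicle libraries. The log2 fold change was 0.44 ± 0.11 (edgeR adjusted p = 0.00203). A narrow peak just past the end of the 45S gene, at 136302-136501, fell by 0.56 on the log2 scale (edgeR adjusted p = 8.89e-07), beside the 28S peak that was not called.

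**Figure D5:**
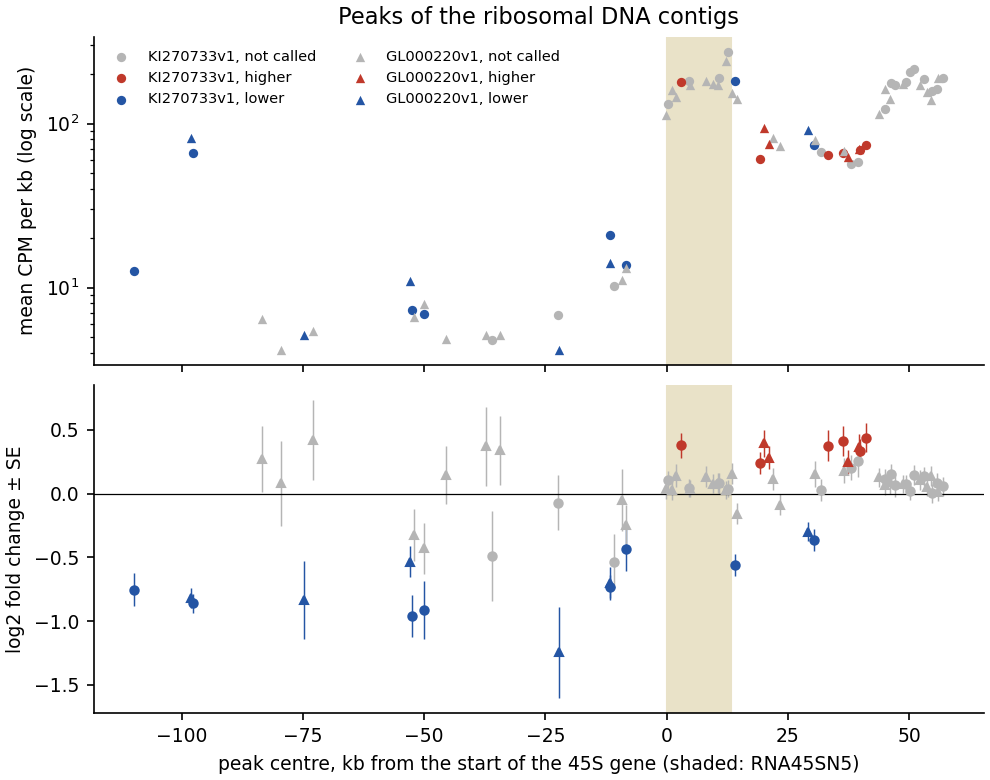
Mean CPM per kb (upper panel, log scale) and log2 fold change with its SE (lower panel) of the 76 peaks of KI270733v1 (circles) and GL000220v1 (triangles) by distance of the peak centre from the 45S start in kb, coloured by the edgeR call, with the RNA45SN5 gene shaded. Most upstream peaks are weak and 11 of 24 fall. Peaks over the gene lie close to 0 apart from 1 called higher, at 0.377. The 9 increases past the gene lie before the partial copy.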

How the data were processed

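The values were whole-number read counts per peak in 8 ATAC-seq libraries, in 1 table that the authors deposited, with no normalization. Per the submitters' processing notes, the tools include Trim Galore 0.6.10, BWA 0.7.17, SAMtools 1.22, Picard, MACS2 2.2.9.1, bedtools and DESeq2, and the build is hg38. How reads that fit several places were counted, and how the peak set was merged, is not given in the sources used here. Positions are printed 1-based. Groups came from the titles, 4 vehicle and 4 sorbitol.

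Peaks were filtered with edgeR 4.0.16 (filterByExpr, minimum count 10, minimum total 15), which removed 49 of 129536 peaks and no contig peak. They were scaled by TMM and tested with edgeR's quasi-likelihood test with Benjamini-Hochberg adjustment over 129487 peaks at a threshold of 0.05. Contig sums were tested over 101 sequences with the same scaling. Shares of counts were compared with two-sided exact permutation tests in scipy 1.17.1. R was 4.3.3, and DESeq2 1.42.0 was an alternative. The fits were tested on simulated data.

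The peaks named were the 6 of highest mean CPM, the 5 of smallest p in each direction, and up to 5 per direction called, at least 2-fold changed and not overlapping. The contigs named were the 8 with the most counts, the 3 of smallest p among called ones in each direction, and the ribosomal DNA contigs. The members and these rules were chosen with earlier results of these data known. Replicate numbers did not pair libraries: correlations of same-numbered libraries' deviations were between -0.132 and 0.00647. Alternatives were other scalings, filters, thresholds, a replicate block and libraries left out. Genes came from RefSeq's table for GRCh38.p14.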

Additional observations from a re-analysis of the deposited data

Results flagged for a closer look

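At 86605-90076 of GL000205v2, sorbitol 4 had 520.5 CPM while the other sorbitol libraries had 472.5 to 478.5 CPM, a gap of 0.875 of the group's range, above Dixon's 95% critical value for 4 samples. The value was still below the lowest vehicle library at 896 CPM. Chance flags about 1 group in 20, and 1 of the 62 groups examined was flagged, where 3.1 would be flagged by chance.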

How the results depend on the processing

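The contig peaks that fell numbered 43 to 73 over all alternatives, 53 to 61 with any 1 library left out, and kept within 1.5 times the 62 reported. The 43 came from a filter that tested 477 contig peaks (9.01%, against 19.0% of all peaks), and the 73 from loess scaling (9.72%, against 12.8%). In every alternative the share called lower was smaller on contigs than over all peaks. The peaks called changed, 99 in all, numbered 64 at an adjusted p under 0.01, 173 with loess scaling, 310 without both replicate 4 libraries and 73 to 198 with any 1 library left out. The 37 that rose numbered 16 at that stricter threshold (2.13%, against 9.45% of all peaks) and 17 in DESeq2 (2.26%, against 12.5%). They numbered 62 by library totals, 100 with loess scaling, 258 without both replicate 4 libraries and 15 to 145 with any 1 library left out. All 37 were among the 258. The cause of each of these shifts was not tested.

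The replicate block, which pairs libraries by number although the numbers did not pair them, gave 90 changed contig peaks (32 higher, 58 lower, beside 26.6% of all peaks changed) and 4 contigs changed, 4 of them lower. No library had its highest correlation with the one of the same number. Without both replicate 4 libraries 45 contigs changed, 37 of them higher. The exact permutation test of single contigs, which could not pass the threshold for them, called 0 of the 7 contigs, with -0.78, -0.66 and -0.94 in log2 CPM for GL000205v2, GL000195v1 and KI270713v1.

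The difference in the unlocalized share turned to -0.0199 percentage points without the contig with the most counts and without the ribosomal DNA contigs, and ran from -0.0256 to 0.0638 with any 1 library left out. The log2 ratio of the classes was -0.129 without both replicate 4 libraries (exact permutation p = 0.1), -0.106 in the exact sign-flip test of the replicate block (whose p was the smallest that 4 pairs can give), -0.0199 without GL000205v2 and -0.119 to -0.0855 with any 1 library left out.

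With any 1 library left out, log2 fold changes ran from -0.005 to 0.085 for the 18S peak of KI270733v1, and from -0.102 to 0.248 and -0.043 to 0.285 for the 2 peaks of KI270438v1. For contig sums they ran from -0.013 to 0.071 (KI270733v1), -0.02 to 0.064 (GL000220v1), -0.033 to 0.224 (GL000225v1), -0.067 to 0.268 (KI270438v1), -0.012 to 0.262 (GL000216v2) and -0.007 to 0.326 (KI270729v1). The 6 peaks named by rule that fell kept direction and call in every alternative run for them. Of the 751 contig peaks, 274 had a mean under 50 counts, which limits what could be called there.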
